A study of Mus musculus with 56 samples.

Results

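To compare the kidney transcriptome of day-fed and night-fed mice in the middle of the light phase, 8 libraries taken at zeitgeber time 8 (ZT8, 8 h after lights on) were compared, out of 56 in the whole series. Of these, 4 came from mice on daytime-restricted feeding (DRF, also called inverted feeding) and 4 from mice on nighttime-restricted feeding (NRF), which served as the reference. Mice in both groups were female C57BL/6J animals of 9 weeks, kept in 12 h of light and 12 h of dark, with 7 days of free feeding for adaptation followed by 7 days on the regimen. Each library was poly(A) RNA from the kidney of 1 mouse, so the spread between replicates includes differences between animals. The exact hours of food access are not given in the labels. At ZT8 the DRF mice were in the phase in which they had food and the NRF mice were in the phase in which they had none, while clock time and light were shared.

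The kidney filters blood and returns water, ions, glucose and amino acids to it, and its proximal tubule draws most of its energy from fatty acids. When food is absent, falling insulin and rising free fatty acids act through FOXO factors and the nuclear receptor PPARA, which raise genes for the import and oxidation of fatty acids. When food is eaten, insulin and sterol sensing act through SREBP factors on genes of lipid synthesis. The kidney also holds a circadian clock, in which the activators CLOCK and BMAL1 drive their own repressors, and it responds to interferons through STAT2 and IRF factors.

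Reads recovered per library ranged from 24.11 to 25.84 M at ZT8. Correlations across genes were 0.992 to 0.995 among the DRF libraries and 0.976 to 0.991 among the NRF libraries. NRF replicate 1 stood apart from the other NRF libraries in markers of the renal medulla, with Aqp2, the water channel of the collecting duct, at 818 TPM against 277 to 308 TPM. TPM is a gene's abundance per length, scaled to a fixed total in each library. Markers of the proximal tubule and glomerulus were present in every library, and none of the 12 cortex markers was called as different between regimens by limma (2 with an unadjusted p under 0.05, and 1 called by limma voom). Slc34a1, the main phosphate carrier of the proximal tubule, was at 2532 to 3848 TPM under DRF and at 1999 to 3901 TPM under NRF. Kap, the androgen-regulated protein of the proximal tubule, varied widely within each group, at 54447 to 110763 TPM under DRF and 29864 to 100792 TPM under NRF. The 6 summed adrenal markers stayed at 13.0 to 16.5 TPM, and the 8 adipose markers at 8.66 to 68.8 TPM. None of the tested adrenal, adipose, liver and pancreas markers was called by either fit, and 2 liver markers had an unadjusted p under 0.05. Of 6 markers of the loop of Henle and distal tubule 2 rose under DRF, Pvalb and Cldn16, and 0 fell, beside 5.81% and 10.1% of all genes tested. In bulk tissue, fewer cells of a type and less RNA per cell cannot be told apart.

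Of 13502 genes with a mean of at least 1 TPM, 2142 differed between DRF and NRF at ZT8 with a Benjamini-Hochberg adjusted p under 0.05 in limma. DRF was higher for 784 genes, or 5.81% of those tested, and lower for 1358, or 10.1%. The balance between directions depended on the scaling of the libraries. Higher genes made up 36.6% of the calls on the TPM scale, 46.8% after median-of-ratios rescaling, 48.6% in the deposited values, 49.2% with the effective library sizes of the table and 50.3% with limma voom on reads. The median difference of all genes tested was -0.05 on the log2(TPM + 1) scale, which is the scale of every log2 difference given here, always as DRF minus NRF. The number of higher genes dropped to 491 without DRF replicate 1, and that of lower genes to 889 without NRF replicate 4. Without NRF replicate 1, the library with the high medulla markers, 664 genes were higher and 1072 lower. Groups of 4 that did not overlap were found with DRF higher for 6.81% of genes and with DRF lower for 15.1%, and these shares stand beside every such count.

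The largest differences belonged to a few kinds of genes. Among genes with a mean of at least 10 TPM and no overlap, the 12 deepest falls under DRF held the fasting genes Angptl4 and Pdk4. The other 10 were Tgtp1, Igtp, Iigp1, Gm4841, Gbp6, Irgm2, Gm12250, Gbp10, Irf7 and 1 gene with no symbol in the reference table, identifier 630751. Tgtp1, Igtp, Iigp1, Irgm2, Gbp6 and Gbp10 encode GTPases that interferon induces to defend cells against intracellular pathogens. The largest rises were more mixed. Of the 12, 11 are described here. They held 4 hemoglobin genes, the lipid synthesis regulator Srebf1, the lysosomal channel Mcoln3, the N-acetyltransferase genes Nat8f5 and Nat8f6, the carrier gene Slc22a28, the matrix protein gene Ccn2 and the mesenchymal and podocyte transcription factor gene Tcf21.

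**Figure D1:**
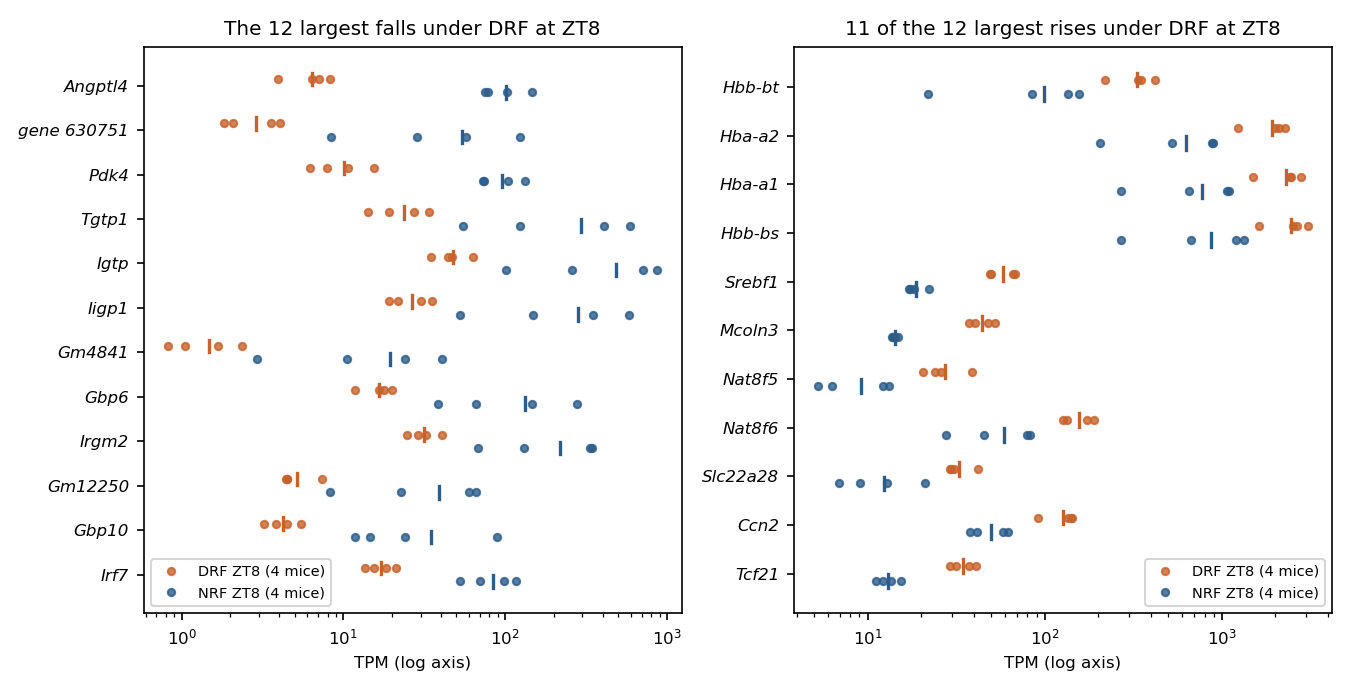
TPM (log axis) of the 12 genes with the largest falls (left) and 11 of the 12 with the largest rises (right) under DRF at ZT8, with 1 point per mouse, orange for DRF and blue for NRF, and a vertical bar at the mean of each group of 4. The 2 groups do not overlap for any gene shown, a property that the choice of genes required, and the NRF points of the interferon-type genes spread far more widely than their DRF points.

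Angptl4 and Pdk4, whose transcripts fasting raises, were lower in the DRF mice. Angptl4, a secreted inhibitor of lipoprotein lipase, was at 3.92, 6.42, 7.10 and 8.28 TPM in the DRF libraries and at 146, 103, 75.2 and 78.8 TPM in the NRF libraries. Its mean was 15.6-fold higher under NRF, and the log2 difference was -3.76 ± 0.42 (SE), with a limma adjusted p of 1.10e-08. Pdk4, the kinase that shuts off pyruvate dehydrogenase and so spares glucose, was at 6.19, 7.94, 10.7 and 15.4 TPM under DRF and 133, 73.4, 74.4 and 104 TPM under NRF. It differed by -3.16 ± 0.33, with a limma adjusted p of 2.29e-09. In both genes the lowest NRF mouse stood well above the highest DRF mouse.

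The list of fatty acid oxidation genes and PPARA targets moved in 1 direction. Of its 35 tested members 14 fell and 0 rose under DRF, against 10.1% and 5.81% of all genes, with a list median of -0.22 beside -0.05 for all genes. Slc25a20, the carrier that brings acylcarnitines into mitochondria, was at 30.3 to 30.9 TPM in the 4 DRF mice and at 62.0 to 71.1 TPM in the 4 NRF mice. Its log2 difference of -1.10 ± 0.09 had the smallest adjusted p in the list, 3.20e-12 in limma. Acot2, a mitochondrial acyl-CoA thioesterase, was at 42.6, 39.4, 44.3 and 38.1 TPM under DRF and 125, 120, 117 and 91.4 TPM under NRF, a log2 difference of -1.43 ± 0.13 with a limma adjusted p of 5.04e-11. The members at both ends of the carnitine shuttle fell alongside these. Cpt1a, which loads fatty acids onto carnitine, had means of 314 ± 26.8 TPM under DRF and 570 ± 48.4 TPM under NRF (SD, n = 4 mice each). Cpt2, which unloads them, had means of 192 ± 6.89 and 341 ± 28.2 TPM. The lipid droplet coat genes Plin2 and Plin5 also fell, by 0.87 and 1.06 on the log2 scale. Hadha, a subunit of the trifunctional protein of beta-oxidation, was the called member with the smallest difference, -0.25 ± 0.07. No member rose under any of the scalings tried, and 14 fell under each of them.

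Of 8 genes of ketone body metabolism 1 fell and 0 rose, beside 10.1% and 5.81% of all genes, with a median of -0.02. Slc16a1, a carrier of lactate and ketone bodies, was at 11.9 to 16.4 TPM under DRF and at 26.0 to 36.6 TPM under NRF, a log2 difference of -1.04 ± 0.17 with a limma adjusted p of 2.45e-05. Bdh1, which interconverts the ketone bodies, and the carrier gene Slc16a7 had differences of 0.25 ± 0.19 and 0.11 ± 0.14.

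Among 25 genes that insulin or FOXO factors control, 5 fell and 0 rose under DRF, beside 10.1% and 5.81% of all genes. The list median was -0.15, and the 5 that fell were Txnip, Irs2, Pik3ip1, Cited2 and Gadd45a. Txnip, an inhibitor of glucose uptake, was at 246, 308, 363 and 347 TPM in the DRF mice and at 846, 901, 709 and 1240 TPM in the NRF mice. It differed by -1.53 ± 0.20, with a limma adjusted p of 3.47e-07. Irs2, the insulin receptor substrate that FOXO induces in fasting, was lower by a smaller amount (-0.62 ± 0.21, limma adjusted p = 0.0390), and its adjusted p reached 0.124 when single libraries were left out. Depp1, another FOXO target, was at 10.5 to 19.4 TPM under DRF and at 16.9 to 59.6 TPM under NRF, so the groups overlapped, and its difference of -1.11 ± 0.49 did not pass (limma adjusted p = 0.116). Gadd45b, a stress response gene, did not pass either, at -0.57 ± 0.29. The summed level of the list was 1079 ± 28.6 TPM under DRF and 1782 ± 286 TPM under NRF, a ratio of 0.606 (2-sided exact permutation test, p = 0.0286, the smallest that 4 mice against 4 can give). Txnip alone, with means of 316 and 924 TPM, made up most of that difference, and 20 of the 25 members were not called.

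Of 19 genes of gluconeogenesis, which the kidney shares with the liver, 3 fell and 0 rose under DRF. Of all genes 10.1% fell and 5.81% rose. After median-of-ratios rescaling, with the effective library sizes or by limma voom, 2 of the 19 fell. Pck1, the rate-limiting enzyme, was at 4269 to 5043 TPM under DRF and at 6383, 8505, 7120 and 10300 TPM under NRF. Its difference was -0.73 ± 0.21, with a limma adjusted p of 0.0141 that rose to 0.0743 without NRF replicate 4. Slc25a10, the mitochondrial dicarboxylate carrier, differed by -0.44 ± 0.12, and Slc38a3, the glutamine carrier that feeds ammonia and glucose production, by -0.55 ± 0.20. The latter was barely called (limma adjusted p = 0.0484), and it was not called after median-of-ratios rescaling. The glucose carrier gene Slc2a1 had a difference of 0.37 ± 0.18 and was not called.

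**Figure D2:**
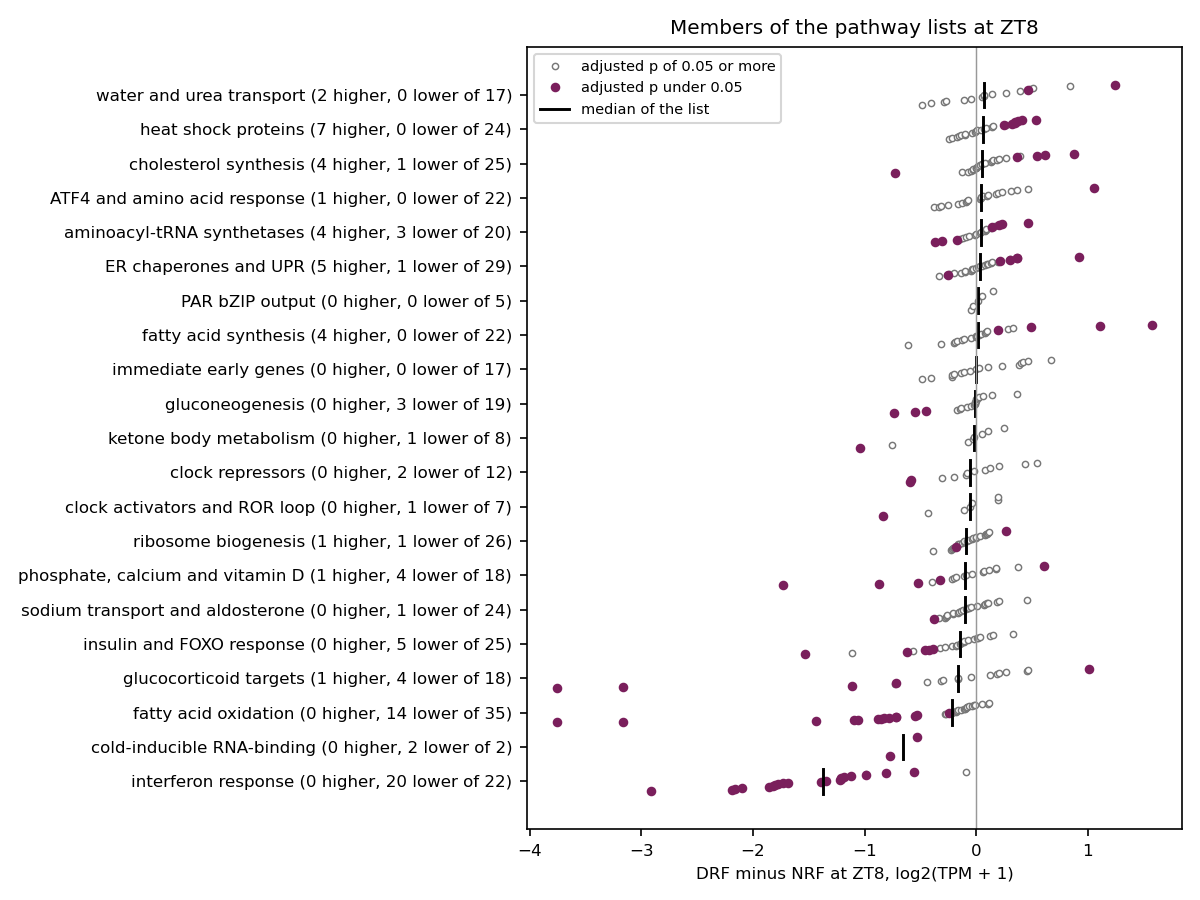
Difference of every tested member of the 21 pathway lists at ZT8 (DRF minus NRF, log2(TPM + 1)), with filled points for an adjusted p under 0.05, open points for the others and a black bar at the list median. The 20 called interferon genes and the 14 called fatty acid oxidation genes all lie left of 0, while most other list medians lie within a short distance of 0.

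Some genes of lipid synthesis were higher under DRF. Srebf1, which encodes the SREBP1 factor of fatty acid synthesis, was at 66.2, 68.3, 49.7 and 49.4 TPM under DRF and at 17.4, 17.0, 18.3 and 22.3 TPM under NRF. It was 3.11-fold higher under DRF, with a log2 difference of 1.58 ± 0.16 and a limma adjusted p of 5.92e-10. Of 22 tested fatty acid synthesis genes 4 rose and 0 fell, beside 5.81% and 10.1% of all genes, with a median of 0.02. The other 3 that rose were Scd2, a desaturase (1.11 ± 0.18), Nr1h3, the liver X receptor that drives Srebf1 (0.49 ± 0.07), and Elovl1, an elongase (0.19 ± 0.06). Elovl6, another elongase, was lower under DRF without passing the test (-0.61 ± 0.23, limma adjusted p = 0.0664), but it was called lower after median-of-ratios rescaling.

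In cholesterol synthesis, 4 of 25 members rose and 1 fell, beside 5.81% and 10.1% of all genes, with a median of 0.05. Mvd, Insig1 and Fdps were among the 4. Mvd, an enzyme of the mevalonate pathway, was at 67.9 to 80.7 TPM under DRF and at 42.3 to 53.6 TPM under NRF (0.62 ± 0.09, limma adjusted p = 5.26e-06). Insig1, which holds SREBP in the endoplasmic reticulum when sterols are plentiful, was at 61.0 to 85.6 TPM under DRF and at 43.7, 43.1, 38.1 and 83.8 TPM under NRF, so NRF replicate 4 lay inside the DRF range. The member that fell, Hsd17b7, catalyses a late step of the pathway and differed by -0.72 ± 0.11. Without DRF replicate 2 only 1 member of the list, Mvd, rose.

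Interferon response genes were lower under DRF in nearly all members of their list. Of 22 members 20 fell and 0 rose under DRF, beside 10.1% and 5.81% of all genes, with a median of -1.37 beside -0.05. In 18 members the groups did not overlap with DRF lower, against 15.1% of all genes. Between 19 and 20 fell when single libraries were left out (19 without DRF replicate 1 or 2 or NRF replicate 1 or 3), and 20 fell under each scaling. Igtp, an immunity-related GTPase, was at 34.8, 44.4, 47.2 and 63.5 TPM in the DRF mice and at 259, 101, 871 and 709 TPM in the NRF mice. Irf7, the master regulator of type I interferon genes, was at 13.7, 21.3, 15.5 and 18.3 TPM under DRF and at 69.7, 53.0, 117 and 97.7 TPM under NRF. The NRF mice differed among themselves far more than the DRF mice did, with replicate 2 the lowest in both genes and replicate 3 the highest. Igtp differed by -2.91 ± 0.39 (limma adjusted p = 3.78e-07) and Irf7 by -2.18 ± 0.28 (limma adjusted p = 1.75e-07). As for every gene, both SEs rest on a spread shared by all 14 groups and not on that of these NRF mice alone.

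NRF replicate 2 was also the lowest NRF mouse for other genes of the list. Irgm1, a regulator of the immunity-related GTPases, was at 38.0 to 47.9 TPM under DRF and at 151, 76.9, 349 and 337 TPM under NRF, a log2 difference of -2.16 ± 0.26 with a limma adjusted p of 5.89e-08. Ifit1, which binds foreign RNA, was at 9.35 to 14.5 TPM under DRF and at 24 to 98.9 TPM under NRF, a log2 difference of -2.10 ± 0.28 with a limma adjusted p of 3.27e-07. Isg15, a ubiquitin-like modifier, was at 11.7 to 16.8 TPM under DRF and 23.4 to 77.1 TPM under NRF. The 2 members that were not called were Ifi27l2a, at -0.98 ± 0.42, and Rsad2, the antiviral enzyme viperin, at -0.09 ± 0.12. Outside the list, the GTPases named among the largest falls ranged from -2.32 for Gbp10 to -3.11 for Tgtp1. Reads of close copies such as Tgtp1 and Tgtp2 or the Gbp genes may have been split by the counting, and Igtp and Irgm2 lie in overlapping positions of chromosome 11, so values of single members are uncertain.

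Summed over the 22 genes, the interferon list stood at 481, 534, 607 and 637 TPM in the DRF mice and at 1720, 829, 3169 and 2740 TPM in the NRF mice. All 4 NRF mice were above all 4 DRF mice, with means of 2115 ± 1051 and 565 ± 70.4 TPM (SD, n = 4), a 3.74-fold difference (2-sided exact permutation test, p = 0.0286). Without any 1 DRF library the same test gave 0.0571. In the other 48 libraries the sum ran from 369 to 1594 TPM with a median of 564 TPM, so 3 of the 4 NRF mice at ZT8 lay above every library of every other group. Among the NRF groups the mean was 1408 TPM at ZT0 but 635 TPM at ZT24, the same clock time. It was 820 TPM at ZT4, 569 TPM at ZT12, 862 TPM at ZT16 (1347 TPM in replicate 1) and 527 TPM at ZT20. The DRF groups had means between 451 and 805 TPM.

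Immune cell markers were compared beside these values. Summed over the 12 listed markers, they were at 812 to 918 TPM under DRF and at 1103, 927, 1757 and 809 TPM under NRF, a ratio of DRF to NRF of 0.770 (2-sided exact permutation test, p = 0.229). Most of that sum was Cd74, the invariant chain of class II antigen presentation and itself a gene that interferon induces, at 691 to 762 TPM under DRF and 711 to 1606 TPM under NRF. Ptprc, which marks all white blood cells, was at 3.40 to 3.98 TPM under DRF and at 2.58 to 3.45 TPM under NRF, and Csf1r, which marks macrophages, had means of 49.3 ± 6.62 and 45.3 ± 7.58 TPM (SD, n = 4). Of the 9 immune markers that passed the filter 1 rose, the cytotoxic cell gene Nkg7, and 0 fell, beside 5.81% and 10.1% of all genes. Cd3e and Ms4a1 were among those below the filter. Ptprc and the macrophage gene Adgre1 were called higher as well after median-of-ratios rescaling, with the effective library sizes and by limma voom, and 0 markers rose without DRF replicate 2, 3 or 4 or without NRF replicate 1 or 4. The part of immune cells in the interferon result was not tested beyond these values.

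Promoter letters are shown for the 4 called interferon genes with the largest differences that had a window in the RefSeq table, because these genes moved together. Each window holds the 250 bases before the start that the RefSeq promoter table gives in GRCm38.p6, 5′ to 3′ on the gene's strand. In the GENCODE annotation the genes Irgm1, Irf7 and Ifit1 start further upstream, so that the Irgm1 window lies inside the gene and the other two overlap it in part. Capitals mark matches, on either strand, to the interferon-gamma activated site TTCNNNGAA or to paired GAAA blocks 2 bases apart, the core of the interferon-stimulated response element. Both motifs were chosen after the values were seen. The windows lie at chr11:58199306-58199555 (Igtp, plus strand), chr7:141266425-141266674 (Irf7, minus strand), chr11:48871421-48871670 (Irgm1, minus strand) and chr19:34640639-34640888 (Ifit1, plus strand).
Igtp: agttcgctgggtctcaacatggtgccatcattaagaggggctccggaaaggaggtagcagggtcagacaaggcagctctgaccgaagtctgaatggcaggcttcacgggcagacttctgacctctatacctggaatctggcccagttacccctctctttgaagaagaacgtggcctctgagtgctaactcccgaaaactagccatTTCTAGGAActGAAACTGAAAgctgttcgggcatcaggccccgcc
Irf7: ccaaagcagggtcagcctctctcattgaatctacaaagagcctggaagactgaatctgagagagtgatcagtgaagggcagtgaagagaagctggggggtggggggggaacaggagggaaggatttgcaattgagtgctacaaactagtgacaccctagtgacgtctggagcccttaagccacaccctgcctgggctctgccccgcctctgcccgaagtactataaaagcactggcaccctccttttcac
Irgm1: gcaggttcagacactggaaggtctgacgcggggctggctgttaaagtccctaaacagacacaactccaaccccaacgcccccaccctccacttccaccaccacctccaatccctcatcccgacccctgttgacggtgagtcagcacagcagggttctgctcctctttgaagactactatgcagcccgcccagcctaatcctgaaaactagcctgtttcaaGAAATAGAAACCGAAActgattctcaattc
Ifit1: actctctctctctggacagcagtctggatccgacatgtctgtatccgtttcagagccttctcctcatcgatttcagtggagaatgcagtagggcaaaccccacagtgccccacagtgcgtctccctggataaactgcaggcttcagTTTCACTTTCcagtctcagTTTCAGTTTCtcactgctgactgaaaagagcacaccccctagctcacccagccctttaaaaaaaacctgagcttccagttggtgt
Igtp held both motifs, 45 and 34 bases before the start. Irgm1 held paired GAAA blocks at 30 and 24 bases, which overlap each other, and Ifit1 at 104 and 85 bases. The Irf7 window held no match to either. Of the 20 called members 16 had a window, and 10 of the 16 (62.5%) held paired GAAA blocks, against 2.98% of all 32851 windows. The TTCNNNGAA motif was in 4 of the 16 (25%) and in 7.02% of all windows, and 11 (68.8%) held at least 1 of the motifs against 9.66%. Members of an interferon response list are likely to hold such sites whatever their level, so these shares do not bear on the ZT8 difference. Of the motifs chosen earlier, the E-box CACGTG, the sterol element TCACNCCAC and the D-box TTATGTAA were in 0 of the 16 windows, against 6.02%, 1.05% and 0.819% of all windows, and the ROR element AGGTCA was in 1 (6.25%) against 14%.

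**Figure D3:**
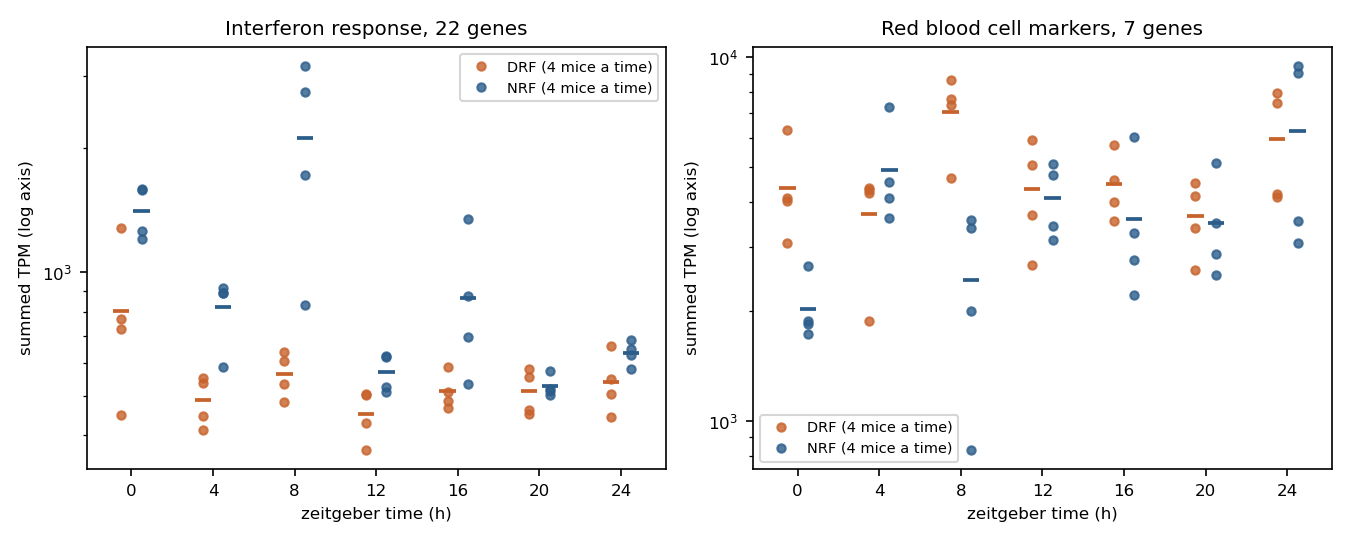
Summed TPM (log axis) of the 22 interferon response genes and of the 7 red blood cell markers in all 56 libraries against zeitgeber time in hours, with 1 point per mouse, orange for DRF and blue for NRF. At ZT8 the NRF mice reach 829 to 3169 TPM for the interferon list while the DRF mice stay at 481 to 637 TPM, and the blood markers are at 831 to 3555 TPM under NRF and 4649 to 8650 TPM under DRF.

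Transcripts of red blood cells were higher in the DRF kidneys. Of the 7 blood markers 6 rose and 0 fell, beside 5.81% and 10.1% of all genes, with a median of 1.71 beside -0.05 for all genes. Hbb-bs, an adult beta-globin gene, was at 2519, 2666, 3050 and 1629 TPM under DRF and at 1203, 1343, 670 and 269 TPM under NRF, a log2 difference of 1.71 ± 0.38 with a limma adjusted p of 0.00134. Alas2, the heme synthesis enzyme of red cell precursors, differed by 1.33 ± 0.36 and was not called without NRF replicate 4, where 5 markers rose. The marker that did not rise, Slc4a1, also belongs to the intercalated cells of the collecting duct and had means of 45.8 ± 3.23 TPM under DRF and 56.6 ± 3.01 TPM under NRF (-0.30 ± 0.18, limma adjusted p = 0.265). The hemoglobin genes form near-identical pairs (Hba-a1 with Hba-a2, Hbb-bs with Hbb-bt), so their single levels are uncertain.

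The summed blood markers were at 7386, 7650, 8650 and 4649 TPM in the DRF mice and at 3381, 3555, 1999 and 831 TPM in the NRF mice, without overlap. The means of 7084 ± 1712 and 2442 ± 1280 TPM (SD, n = 4) differed 2.90-fold (2-sided exact permutation test, p = 0.0286). Without any 1 NRF library the test gave 0.0571. The other 48 libraries ran from 1737 to 9440 TPM, and NRF replicate 4 at ZT8 lay below all of them. NRF means were 2029 TPM at ZT0 but 6276 TPM at ZT24, the same clock time, and DRF means were 4378 and 5949 TPM. The amount of blood left in the tissue is not given in the labels, and its part in the other results was not tested.

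The other large rises were in genes of unlike functions. Mcoln3, a calcium channel of lysosomes and endosomes, was at 37.6, 52.2, 40.3 and 47.8 TPM under DRF and at 13.8 to 14.9 TPM under NRF, a difference of 1.56 ± 0.14 with a limma adjusted p of 5.04e-11. Tcf21 was at 29.2 to 40.9 TPM under DRF and 11.2 to 15.5 TPM under NRF, and Ccn2 at 91.6 to 142 and 37.9 to 62.1 TPM. Slc22a28, a member of the organic anion carrier family, had means of 32.9 ± 6.15 TPM under DRF and 12.4 ± 6.22 TPM under NRF (SD, n = 4).

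Clock genes were tested in 3 groups, activators, repressors and output genes. Of 7 tested activators and ROR-loop genes 0 rose and 1 fell, and of 12 repressors 0 rose and 2 fell, beside 5.81% and 10.1% of all genes. After median-of-ratios rescaling, or with the effective library sizes, 2 repressors rose, Cry1 and Per2, and 2 fell. Nr1d1, which encodes the repressor REV-ERB alpha, was at 136, 133, 103 and 88.8 TPM under DRF and at 192, 227, 185 and 212 TPM under NRF. Its difference of -0.84 ± 0.26 had a limma adjusted p of 0.0201, which rose to 0.0759 without DRF replicate 4. Nr1d2, its paralog, was at 87.8 to 101 TPM under DRF and at 91.3 to 114 TPM under NRF, a difference of -0.06 ± 0.15. The activator genes Arntl, Clock and Npas2 had differences of 0.19 ± 0.18, -0.11 ± 0.11 and -0.43 ± 0.18, and the receptor gene Rora -0.04 ± 0.10. None of these passed the test, and Rorb was below the filter.

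Among the repressors, Fbxl21, which controls the stability of cryptochromes, was at 1.77 to 2.39 TPM under DRF and at 2.82 to 4.26 TPM under NRF (-0.59 ± 0.14, limma adjusted p = 0.00274). Bhlhe41, a repressor of CLOCK and BMAL1, fell by 0.59 (limma adjusted p = 0.0182, up to 0.104 when NRF replicate 4 was left out), and its groups overlapped. Per2 was at 37.3, 33.3, 19.1 and 27.8 TPM under DRF and at 19.4, 20.1, 17.0 and 28.2 TPM under NRF, which overlapped, and its difference of 0.44 ± 0.18 did not pass (limma adjusted p = 0.0904). Cry1 was just short of the threshold at 0.55 ± 0.20 (limma adjusted p = 0.0520). Per1, Per3, Cry2, Ciart, Bhlhe40, Csnk1d and Csnk1e had differences between -0.30 and 0.21 and were not called. None of the 5 clock output genes was called by limma or limma voom, and 0 had an unadjusted p under 0.05. Dbp was at 128 to 212 TPM under DRF and 140 to 182 TPM under NRF, a difference of -0.03 ± 0.32, and Hlf, Tef, Nfil3 and Usp2 had differences between -0.05 and 0.15. Of the promoter windows of the 3 called clock genes, that of Bhlhe41 held 1 E-box CACGTG and those of Nr1d1 and Fbxl21 none of the motifs searched.

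Genes of protein folding were higher under DRF in a minority of members. Of 24 heat shock genes 7 rose and 0 fell, beside 5.81% and 10.1% of all genes, with a median of 0.06. Fkbp4, a cochaperone of steroid receptors, was at 304, 300, 304 and 273 TPM under DRF and at 187, 199, 215 and 214 TPM under NRF. It differed by 0.53 ± 0.06, with a limma adjusted p of 3.06e-08. The HSP90 genes Hsp90ab1 and Hsp90aa1 rose by 0.35 and 0.41, and Hspe1, the mitochondrial chaperonin partner, by 0.38. The cold-inducible genes fell, both of 2, beside 10.1% of all genes. Cirbp was at 36.6 to 47.5 TPM under DRF and at 67.5 to 86.3 TPM under NRF, and Rbm3 at 66.2 to 84.3 and 85.1 to 130 TPM. Both encode RNA-binding proteins whose transcripts rise when body temperature drops. Their differences were -0.77 ± 0.14 and -0.53 ± 0.10.

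Of 29 genes of the endoplasmic reticulum and its unfolded protein response 5 rose and 1 fell, beside 5.81% and 10.1% of all genes. The fall, of the ubiquitin ligase gene Syvn1, was not called after median-of-ratios rescaling, with the effective library sizes, in the deposited values or by limma voom, and only 2 members rose without DRF replicate 3, without NRF replicate 1 or without NRF replicate 2. Sdf2l1, a chaperone partner, was at 21.7 to 34.8 TPM under DRF and 10.6 to 18.6 TPM under NRF (0.92 ± 0.19). Pdia6, a disulfide isomerase, and Hsp90b1, the HSP90 of this compartment, each differed by 0.37, while Ddit3, the stress factor CHOP, was not called at -0.33 ± 0.13. Of 20 aminoacyl-tRNA synthetases 4 rose and 3 fell, beside 5.81% and 10.1% of all genes. Cars (0.47 ± 0.07) and Yars (0.23 ± 0.07) were higher, and Lars (-0.37 ± 0.08) and Wars (-0.31 ± 0.09) lower. Wars, the tryptophan synthetase, is itself induced by interferon. After median-of-ratios rescaling 7 synthetases rose and 3 fell, and without DRF replicate 1 only 1 rose.

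Of 22 tested genes of the ATF4 and amino acid response 1 rose and 0 fell, beside 5.81% and 10.1% of all genes. The gene that rose was the glutathione-degrading enzyme gene Chac1 at 1.05 ± 0.30, while 4 rose after median-of-ratios rescaling. Asns, Cebpb, Ddit4 and Psat1 had differences between -0.38 and 0.46 and were not called, and Pycr1 and Slc7a11 were below the filter. Of 26 ribosome biogenesis genes 1 rose, the nucleolar methyltransferase Fbl at 0.27 ± 0.06, and 1 fell, beside 5.81% and 10.1% of all genes. Nop58, Rrp12 and Utp20 had differences between -0.38 and -0.21 and were not called. Of 17 tested immediate early genes 0 were called by limma or limma voom and 3 had an unadjusted p under 0.05, with differences of 0.42 ± 0.38 for Egr1, -0.41 ± 0.28 for Fosl2, 0.39 ± 0.24 for Ier3 and 0.47 ± 0.27 for Dusp1. Fosb and Egr3 were below the filter.

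Of 18 glucocorticoid targets 1 rose and 4 fell, beside 5.81% and 10.1% of all genes, and 3 rose with the effective library sizes. Angptl4 and Pdk4, also members of the oxidation list, were 2 of the 4. Mt2, a metallothionein, was at 179, 285, 225 and 251 TPM under DRF and at 729, 448, 377 and 517 TPM under NRF (-1.11 ± 0.26, limma adjusted p = 0.00211), and its neighbour Mt1 fell by 0.71. Hsd11b1, which regenerates active glucocorticoid, rose, at 42.9 to 49.3 TPM under DRF and 16.3 to 31.7 TPM under NRF. The classical targets Tsc22d3 (0.45 ± 0.21) and Per1 (0.21 ± 0.29) were not called.

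Of 24 tested sodium transport and aldosterone genes 0 rose and 1 fell, beside 5.81% and 10.1% of all genes. The gene that fell was Nedd4l, the ubiquitin ligase that removes the epithelial sodium channel, at -0.37 ± 0.08. Slc9a3, the sodium-proton exchanger, was not called at -0.28 ± 0.11, and Atp1b1 was not among the genes with recovered reads. Of 17 water and urea transport genes 2 rose, beside 5.81% of all genes. Aqp2 was at 1013, 954, 814 and 837 TPM under DRF and at 818, 277, 308 and 301 TPM under NRF, so NRF replicate 1 reached into the DRF range and the other NRF mice did not. The difference was 1.24 ± 0.38 with a limma adjusted p of 0.0214, up to 0.0716 when single libraries were left out, and without NRF replicate 1 it was 1.61 (limma adjusted p = 0.00391). Aqp3, the basolateral water channel of the same cells, was at 296 to 384 TPM under DRF and 208 to 263 TPM under NRF (0.46 ± 0.14, limma adjusted p = 0.0181). Without NRF replicate 3 neither was called. Deep medulla genes varied strongly between mice and were not called, as with the urea transporter Slc14a2 at 27.5 to 145 TPM under DRF and 7.47 to 255 TPM under NRF. Aqp4 (0.48 ± 0.52) and the betaine carrier Slc6a12 (0.84 ± 0.79) were not called either. The 12 collecting duct and medulla markers summed to a mean of 2190 TPM under DRF and to 2243, 1471, 1507 and 1591 TPM under NRF, a ratio of 1.29 (2-sided exact permutation test, p = 0.0857). Without NRF replicate 1 the ratio was 1.44 (exact permutation test, p = 0.0286 in place of 0.0857). Aqp2 is itself a member of this marker list and, with means of 904 and 426 TPM, made up most of the difference between the sums. Among the 12 markers 2 rose and 1 fell, beside 5.81% and 10.1% of all genes, with a median of -0.08. The fall was not called after median-of-ratios rescaling. The part of the tissue sampled in the aquaporin result was not tested.

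In vitamin D, calcium and phosphate handling, 1 of 18 genes rose and 4 fell, beside 5.81% and 10.1% of all genes. Vdr, the vitamin D receptor, was at 179, 153, 140 and 158 TPM under DRF and at 253, 304, 298 and 296 TPM under NRF, a difference of -0.87 ± 0.12 with a limma adjusted p of 8.91e-07. Its target Cyp24a1, the enzyme that degrades active vitamin D, was at 94.8, 56.4, 46.4 and 33.4 TPM under DRF and at 99.6, 203, 196 and 269 TPM under NRF. The groups were close at 1 NRF mouse, and the difference of -1.73 ± 0.57 (limma adjusted p = 0.0318) lost its call without DRF replicate 2, 3 or 4 or NRF replicate 2, 3 or 4, with an adjusted p of up to 0.101. The other 2 that fell were the calcium channel gene Trpv6 (-0.52 ± 0.13) and the phosphate carrier gene Slc20a2 (-0.32 ± 0.06). Slc8a1, the sodium-calcium exchanger, rose by 0.61 ± 0.17, and it was not called without DRF replicate 1. Cyp27b1, which makes active vitamin D, was at 5.67 to 18.6 TPM under DRF and at 5.27 to 28.5 TPM under NRF and was not called.

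The differences at ZT8 were set against those at ZT20, 12 h away, when NRF mice were the ones with food. Whether the differences followed the meal or the clock time was not tested. No mouse is shared between the times. At ZT20 DRF was higher for 10.6% of genes and lower for 6.31%. Of the 784 genes higher at ZT8, 6 were also called higher at ZT20 and 226 were called lower, and of the 1358 lower genes 13 were also called lower and 491 higher. The difference of differences was called for 3849 genes, or 28.5%. The fatty acid oxidation list had 21 of 35 members called higher and 0 lower at ZT20, with a median of 0.37, and the insulin and FOXO list 8 higher and 1 lower of 25. Heat shock genes had 9 of 24 called lower at ZT20 and cholesterol synthesis genes 16 of 25.

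Single genes differed in both size and sign between the times. Angptl4 was at 95.6 ± 43.3 TPM under DRF and 11.2 ± 8.23 TPM under NRF at ZT20 (SD, n = 4), a difference of 3.14 ± 0.42. Pdk4 was at 320 ± 105 and 28.4 ± 12.5 TPM, a difference of 3.48 ± 0.33. Srebf1 was at 23.2 ± 6.21 and 55.1 ± 11.1 TPM, the reverse of its order at ZT8. Lgals4, a galectin of epithelia, was at 9.83 to 11.8 TPM under DRF and 37.1 to 53.2 TPM under NRF at ZT8 but at 41.3 ± 9.16 and 12.6 ± 1.02 TPM at ZT20, a change of -3.55 ± 0.25 between times. Cyp24a1 was at 301 ± 218 TPM under DRF and 52.0 ± 37.2 TPM under NRF at ZT20. Angptl4, Pdk4, Lgals4 and Cyp24a1 were named for the size of their difference between times, which their change of sign made larger, so these values are a description.

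Interferon genes and blood markers were not called in the opposite direction at ZT20. Of the 22 interferon genes 0 were called higher and 3 lower at ZT20, with a median of -0.01, and the ZT8 difference was lower than the ZT20 difference for 16 of them. Igtp was at 39.4 ± 2.65 TPM under DRF and 31.3 ± 3.17 TPM under NRF at ZT20. Of the 7 blood markers 0 were called by limma at ZT20 and 0 had an unadjusted p under 0.05, and the difference between times was called for 5.

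**Figure D4:**
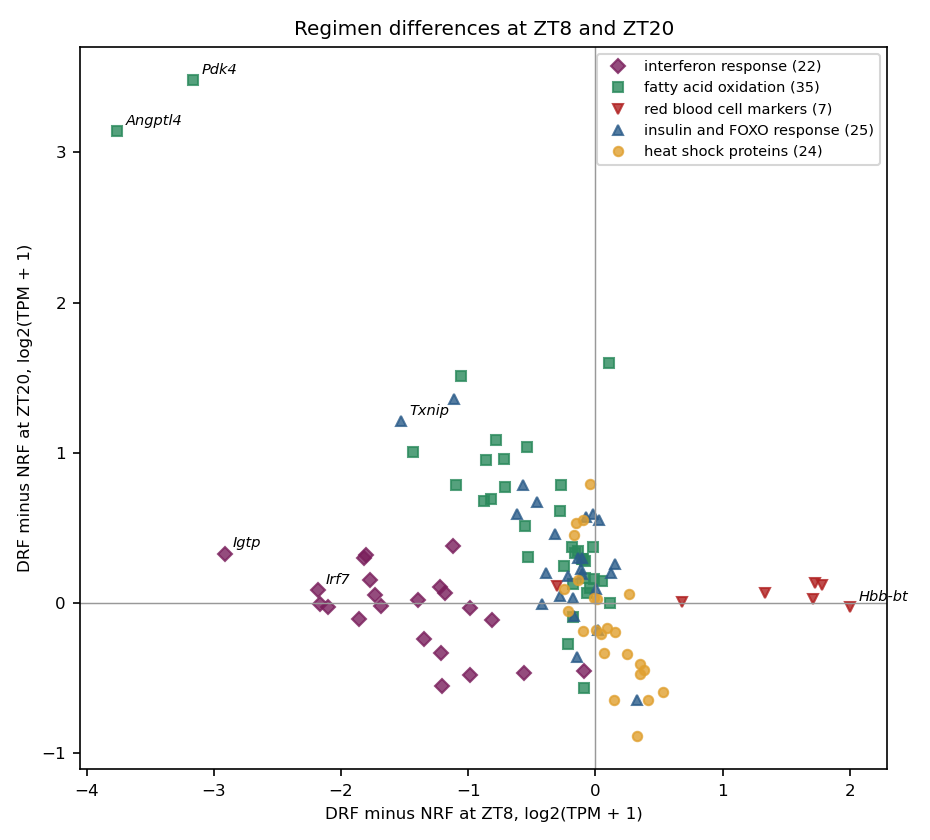
DRF minus NRF at ZT8 (horizontal) against DRF minus NRF at ZT20 (vertical), both in log2(TPM + 1), for the members of 4 pathway lists and the red blood cell markers, with 1 point per gene and lines at 0. Angptl4 and Pdk4 lie at the upper left with opposite signs at the 2 times, the interferon genes extend to the left near 0 on the vertical axis, and the globin genes extend to the right near 0.

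At ZT4, the earlier time point in the same light and feeding phases, DRF was higher for 10.2% of genes and lower for 17.7%. Of the 784 genes higher at ZT8, 210 were called higher at ZT4 and 49 lower, and of the 1358 lower genes 582 were called lower and 63 higher. The difference between ZT8 and ZT4 was called for 1399 genes, or 10.4%. The oxidation list had 11 of 35 lower at ZT4 and the interferon list 14 of 22, with medians of -0.16 and -0.69. Further lists had more members called at ZT4. Heat shock genes had 19 of 24 called higher at ZT4 with a median of 0.64, cholesterol synthesis 17 of 25 with a median of 0.52, and genes of the endoplasmic reticulum 24 of 29 with a median of 0.42. The difference between times was itself called with the lower value at ZT8 for 9, 11 and 14 members of these lists, and with the higher value for 0, 0 and 1. Per2 differed by 2.76 at ZT4, beside 0.44 at ZT8.

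Some genes, of which Slc25a25, G0s2 and Hbb-bt were named for the size of their difference between times, changed sign between the 2 light-phase times. Slc25a25, an ATP-magnesium carrier of mitochondria, was at 21.8, 32.7, 26.9 and 38.5 TPM under DRF and at 82.6, 93.3, 121 and 171 TPM under NRF at ZT8, but at 111 ± 10.1 and 63.9 ± 27.3 TPM at ZT4 (SD, n = 4). G0s2, an inhibitor of fat breakdown, was at 71.4 ± 19.2 TPM under DRF and 132 ± 37.4 TPM under NRF at ZT8 and at 163 ± 25.4 and 62.1 ± 6.62 TPM at ZT4. Hbb-bt was at 331 ± 83.5 and 99.3 ± 59.4 TPM at ZT8 and at 145 ± 53.1 and 214 ± 78.3 TPM at ZT4, where limma called 0 of the 7 blood markers and 2 had an unadjusted p under 0.05. Pck1 was lower under DRF at ZT8 and higher at ZT4, at 6134 ± 795 against 4471 ± 2260 TPM. Nat8f6 was higher under DRF at both, at 127 to 191 against 27.8 to 82.6 TPM at ZT8 and at 254 ± 50.6 against 43.5 ± 10.7 TPM at ZT4.

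**Figure D5:**
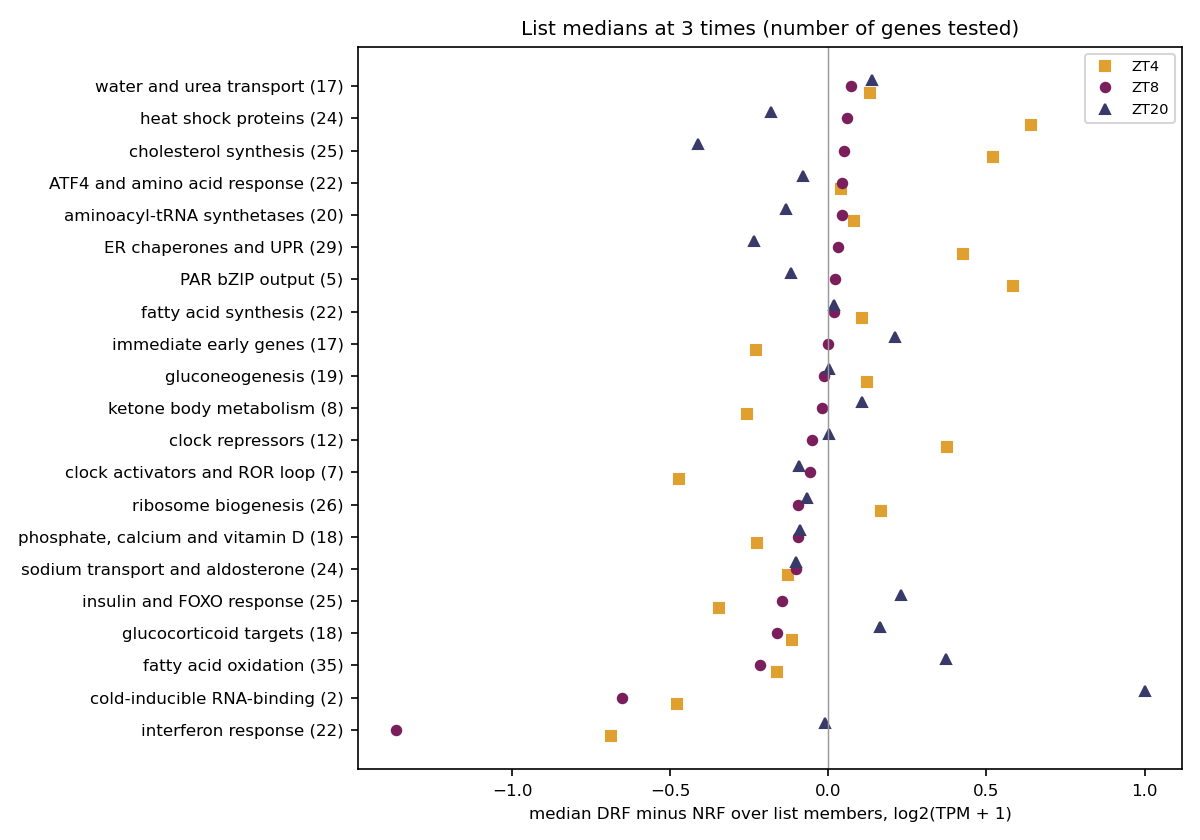
Median difference (DRF minus NRF, log2(TPM + 1)) over the tested members of each pathway list at ZT4 (squares), ZT8 (circles) and ZT20 (triangles), with the number of genes tested in brackets. The interferon list lies at -0.69, -1.37 and -0.01 and the fatty acid oxidation list at -0.16, -0.22 and 0.37, while the heat shock list falls from 0.64 at ZT4 to 0.06 at ZT8.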

How the data were processed

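Poly(A) RNA was sequenced by the authors as paired-end reads of 100 bases on a BGISEQ-500 instrument. Their processing notes name HISAT2, Bowtie2, RSEM, mm10 and GRCm38.p6, without versions or roles. The authors deposited 1 table of 17027 genes in 56 libraries, and its values, titled TPM, behaved as a score, log2(CPM + 1) over gene length, scaled to sums of 999145 to 999753. Comparisons had been planned for linear TPM, so reads were first recovered for 17012 genes, whole within 0.05 for 14835 of them, and converted to TPM. In the genes with whole reads, 99.8% of the values above 0 were whole. The length of some genes was found by search, and the TPM levels of Angptl4, gene 630751, Iigp1, Acta2, Cpt1a, Cd74, Csf1r, Gm4841, Gm12250, Scd2, Slc8a1, Nedd4l, Lars, Rrp12, Aqp4, Slc14a2 and Dusp1 depend on it. Cyp4a10, Cyp4a31 and Atp1b1 had no recovered reads. One NRF ZT24 column carried a number not among those of the labels and was used without a number.

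Genes with a mean of at least 1 TPM over 56 libraries (13502) were fitted as log2(TPM + 1) over 14 groups (limma 3.58.1, trend of variance on mean level, R version 4.3.3), and p-values were adjusted by the Benjamini-Hochberg method over all genes tested. Sums over lists were compared with 2-sided exact permutation tests over 70 arrangements. Scripts were tested on simulated data.

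Named genes were the 12 largest rises and falls (called, mean of at least 10 TPM, no overlap), up to 4 members of each pathway list with the largest differences, all clock genes and the 4 largest differences between times. Of these, 1 large rise and some list members are not reported here, but all stayed in the fits and counts. Called members named beyond these, and Cd74, Ptprc, Csf1r and Nkg7, were added after their values were seen. The 21 pathway and 9 marker lists and this comparison were chosen with earlier results of these data known. The alternatives were a pseudocount of 0.1, no filter or a minimum of 5 TPM, median-of-ratios rescaling, the deposited values, the compared libraries alone, limma voom on recovered reads, a replicate block, a minimum of 1.5-fold and leaving out single libraries. Scaling by the effective library sizes of the table was added after seeing the data. Replicates were separate mice, and no pair of replicate libraries agreed within counting noise. Promoter windows came from RefSeq. Reads do not carry molecular identifiers in the sources used here, so depth bounds counting error only.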

Additional observations from a re-analysis of the deposited data

Results flagged for a closer look

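In 6 of 106 groups of 4 libraries, 1 library lay apart from the other 3 by more than Dixon's critical share of the group's range, which chance exceeds in about 1 of 20 groups. Ccn2 was at 91.6 TPM in DRF replicate 2, below the other DRF mice. Gbp10 was at 89.0 TPM in NRF replicate 3 and Gm12250 at 7.36 TPM in DRF replicate 4, each above the rest of its group. The collecting duct and medulla markers summed to 2243 TPM in NRF replicate 1. Slc22a28 was at 42.1 TPM in DRF replicate 3, and the summed ketone body genes were at 2761 TPM in DRF replicate 4.

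By the interaction term in limma, the regimen difference at ZT8 departed from that at ZT20 in 3849 genes and that at ZT4 in 1399. The 8 genes given here were named for the size of that term, so their adjusted p-values are a description. Against ZT20, the difference of differences was -6.90 for Angptl4 (adjusted p = 3.41e-12), -6.64 for Pdk4 (1.14e-14), -4.26 for Cyp24a1 (7.80e-05) and -3.55 for Lgals4 (1.14e-14). All 4 were lower under DRF at ZT8 and higher at ZT20. Against ZT4, it was -2.83 for Slc25a25 (adjusted p = 9.95e-06), -2.24 for G0s2 (9.76e-06), 2.60 for Hbb-bt (0.00178) and 2.19 for Hba-a2 (0.00457).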

How the results depend on the processing

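The 2142 calls at ZT8 became 496 (193 higher, 303 lower) with a minimum of 1.5-fold, and the 784 higher genes became 1229 after median-of-ratios rescaling, 1263 with limma voom and 1276 with the effective library sizes. Leaving out single libraries gave 1517 to 1890 calls, 491 to 743 higher and 889 to 1236 lower. The ZT8 difference against that at ZT20 gave 3849 calls (1346 higher, 2503 lower), and 1519 (534 higher, 985 lower) with a minimum of 1.5-fold. Its higher calls were 2091 after median-of-ratios rescaling and 2208 with the effective library sizes, and its median over all genes moved from -0.09 to 0.09 in the deposited values. Leaving out libraries gave 3255 to 4536 calls, 1139 to 1384 higher and 1871 to 3357 lower, with the highest total without DRF ZT20 replicate 2. Higher calls were 35.0% of its calls, and 48.7%, 53.3%, 46.5% and 51.8% with median-of-ratios rescaling, deposited values, limma voom and effective library sizes. Against ZT4 the 1399 calls (730 higher, 669 lower) became 736 (373 higher, 363 lower) in a fit of the compared libraries, 555 (325 higher, 230 lower) with a minimum of 1.5-fold, 1124 higher with limma voom, and 1172 and 1125 lower with median-of-ratios rescaling and effective library sizes. Leaving out libraries gave 1099 to 1647 calls, 534 to 1047 higher and 513 to 693 lower. Beyond fewer samples or a stricter limit, the cause of these shifts was not tested.

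The ratio of DRF to NRF sums without single libraries was 2.38 to 3.42 for blood markers, 0.222 to 0.320 for interferon genes, 1.23 to 1.44 for collecting duct and medulla markers, 0.701 to 0.935 for immune markers and 1.01 to 1.33 for cortex markers. For 73 called single genes, 1292 of 1375 values under alternatives kept their direction and stayed under the threshold, 83 kept the direction only, and 0 changed direction. Same-numbered mice of the regimens deviated with correlations of -0.29, 0.13, 0.26 and -0.17, so the numbers were not taken to pair them. With the replicate block 1852 genes were called (692 higher, 1160 lower), 5 of the 73 genes (Cyp24a1, Hsp90aa1, Hsp90b1, Slc38a3 and Yars) lost their call, and 3610 and 1126 genes were called against ZT20 and ZT4. Depth limits genes near 1 TPM, such as Npas2, and 4 mice a group limit every sum to a smallest p of 0.0286.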

Other observations

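The groups described here were put together by gene symbol or known function after their values at ZT8 were seen, so their counts describe these libraries and support nothing. Genes of contractile smooth muscle, which in kidney mark vessel walls and pericytes, were higher under DRF in 6 of 8, beside 5.81% of all genes, with a median of 0.72. Tagln, an actin-binding protein, was at 71.7, 62.0, 61.0 and 57.6 TPM in the DRF mice and at 33.8, 22.2, 27.3 and 36.4 TPM in the NRF mice, without overlap (1.07 ± 0.19, limma adjusted p = 4.66e-05). Acta2, smooth muscle actin, was at 65.5 to 85.5 and 33.8 to 51.0 TPM, and Myl9, a myosin light chain, at 132 to 157 and 61.0 to 92.2 TPM. Of 27 collagen genes 9 rose and 4 fell, and of 13 laminin and nidogen genes 4 rose and 0 fell, beside 5.81% and 10.1% of all genes. Col14a1 at 0.93 ± 0.23 and Col6a2 at 0.68 ± 0.17 were among the collagen genes that rose. The differences of the 27 collagen genes ran from -0.97 to 0.93, with a median of 0.09. At ZT20 limma called 0 of the 8 smooth muscle genes, 1 of which had an unadjusted p under 0.05, and at ZT4 2 were called higher. The blood markers were higher in the same DRF libraries, and the part of vessels and blood in these values was not tested.

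Of 8 genes of the Nat8 family of acetyltransferases 6 rose and 1 fell under DRF at ZT8, beside 5.81% and 10.1% of all genes, with a median of 1.02. At ZT20 4 were called lower, beside 6.31% of all genes, and at ZT4 7 were called higher, beside 10.2%. These genes are close copies, so their single values are uncertain. Of 41 mitochondrial carriers of the Slc25 family 4 rose and 10 fell, beside 5.81% and 10.1% of all genes. All 3 tested H1 linker histone genes fell, beside 10.1% of all genes. H1f2 was at 18.3, 20.5, 27.7 and 26.6 TPM under DRF and at 151, 84.5, 103 and 87.2 TPM under NRF (-2.13 ± 0.24, limma adjusted p = 1.21e-08), and it was higher under DRF at ZT20 at 119 ± 26.1 against 46.6 ± 14.9 TPM. H1f0, the linker histone of differentiated cells, fell by 0.66. All 9 guanylate-binding protein genes and all 7 immunity-related GTPase genes fell, beside 10.1% of all genes, with medians of -1.73 and -2.49.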
